A study of Mus musculus with 15 samples.

Results

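The data described here are the 3 arrays that set retinas of mice kept for 5 days in high oxygen against normal retinas of the same age, postnatal day 12 (P12). They were chosen by their sample titles and make up 3 of the 15 two-colour arrays of the series. The series studied oxygen-induced retinopathy (OIR) in wild-type C57BL/6J mice. OIR pups were moved at P7 from room air into 75 ± 2% oxygen, and those of P12 were taken after 5 days, with 0 h of room air afterwards (P12-O). Normal pups stayed in room air from birth and were taken at the same age (P12-N). A sample was a pool of 10 neural retinas from 5 mice of 1 litter, and different samples came from different litters. Each array set 1 P12-O pool against 1 P12-N pool. The value of a probe is the log2 ratio of P12-O over P12-N, so a value below 0 stands for a lower level in the retina kept in oxygen and each log2 unit for a doubling. Where a gene is said below to have fallen or risen by an amount, this is its ratio against P12-N and not a change over time. Of the 12 other arrays, those of P8 (P8-O/P8-N, after 1 day in oxygen), of P13 (P13-O/P13-N, after 5 days in oxygen and 24 h in room air) and of normal retina at P9 and P30 were used for comparison, with 3 arrays each.

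In this model, oxygen given while the retinal vessels still grow closes and prunes the young capillaries of the central retina. The deep and intermediate plexuses of vessels do not form on time. The hypoxia-inducible factors (HIF) are degraded where oxygen is plentiful, so their targets, among them *Vegfa* and the enzymes of glycolysis, are transcribed less. When the mice return to room air, the retina without vessels becomes hypoxic and new vessels sprout. P12-O therefore stands at the end of the oxygen phase, before any return to room air.

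The 3 arrays held 16697, 17143 and 15751 values for 29922 probes, beside 12008 to 21189 over all 15 arrays, and their median log2 ratios were -0.01, 0.00 and 0.01. Probes with values on at least 2 of the 3 arrays were tested, which left 16516 probes and 10781 genes. The P12 arrays correlated with each other at r = 0.34 to 0.52 over probes, against -0.20 to 0.21 among the P8 arrays and 0.04 to 0.46 among the P13 arrays. Ratios give no absolute level, so only which marker genes had values could be counted. Of 26 rod genes listed, 23 were tested, as were 17 of 19 Müller glia genes, 14 of 18 lens genes, 10 of 13 muscle genes and 3 of 16 blood genes. Over all probes, 16516 of 29922 were tested. Having a value therefore does not set retina apart from other tissue.

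With limma, 75 probes (0.454% of those tested) were higher and 135 (0.817%) lower in P12-O than in P12-N at an adjusted p under 0.05 and at least 1.5-fold. These were 48 named genes higher and 101 lower, of 10781 tested. Of the genes lower, 28 were on the lists of vessel genes described below, 2 on the lists of glycolytic and hypoxia-induced genes and 3 on those of rods, cones and synapses. Of the genes higher, 0 were on any of these lists. The lists differ in size, so these counts are not to be compared with each other, and the number measured is given with each list below. The list counts below drop the 1.5-fold cutoff and use an adjusted p under 0.05 alone, so they are not the counts given here. All 70 higher probes with 3 values were above 0 on each array, and 124 of 126 lower probes with 3 values were below 0 on each. The counts depended on single arrays. Without replicate 1, 13 probes were higher and 58 lower, without replicate 2, 125 and 171, and without replicate 3, 34 and 63.

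Among the 15 lowest named probes with 1 sign on all 3 arrays, 10 belonged to genes of endothelial cells or of their basement membrane. The lowest was *Prnd*, which encodes the prion-like protein doppel of growing vessels. It read -1.22, -1.82 and -1.38 on replicates 1, 2 and 3, which is 0.36 of the normal level in the mean (mean -1.47, SE 0.17, limma adjusted p = 0.00075). *Cd34*, a sialomucin on endothelial cells and blood progenitors, read -1.44, -1.36 and -1.44, 0.376 of the normal level (mean -1.41, SE 0.13, adjusted p = 0.00016). The ubiquitin ligase gene *Ubr3*, which was on none of the lists, read -1.26, -1.37 and -1.20 (mean -1.28, SE 0.09, adjusted p = 1.4e-05). The 3 arrays lay close together for *Cd34* and *Ubr3* and were further apart for *Prnd*, with replicate 2 the lowest. *Drd4*, the dopamine receptor of photoreceptors, fell by 1.19 (adjusted p = 0.0046) and the mitochondrial carrier gene *Slc25a35* by 1.17 (adjusted p = 0.0027). Without replicate 1 the adjusted p of *Drd4* was 0.051.

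Most genes measured on the endothelial list were lower at P12. Of 26 endothelial genes measured, 17 were lower and 0 higher at an adjusted p under 0.05, where 4.87% of all genes tested were lower and 3.37% higher, and their median log2 ratio was -0.64 beside -0.01 for all genes. The median was -0.72, -0.66 and -0.59 on replicates 1, 2 and 3. The shares of all genes are also the background for the other list counts at P12 below. The members of all lists were chosen with earlier results of these data known. The counts therefore describe the lists and do not test them. Of the 28 probes of the list with 3 values, 22 were below 0 on all of them. The count of genes lower was 14, 16 and 14 without replicates 1, 2 and 3, and SAM, a test on the 3 P12 arrays alone at a false discovery rate of 1% and 1.5-fold, called 15 of the 26 genes. In a bulk pool, fewer endothelial cells and less RNA per endothelial cell cannot be told apart.

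After *Cd34*, the largest decreases on the endothelial list were those of *Vwf*, *Adgrl4* and *Cdh5*. *Vwf*, the clotting factor stored by endothelium, read -1.15, -1.52 and -1.03 (mean -1.23, SE 0.11, adjusted p = 0.00014). *Adgrl4*, an adhesion receptor of endothelial cells, read -1.40, -1.26 and -0.86 (mean -1.17, SE 0.13, adjusted p = 0.00074). *Cdh5*, which encodes VE-cadherin of endothelial junctions, read -0.96, -1.09 and -1.15 (mean -1.07, SE 0.11, adjusted p = 0.00027). Each of the 3 arrays was far below 0 for all 3 genes, and no array was the lowest throughout. *Eng*, a coreceptor for TGF-beta, fell by 1.04 (adjusted p = 0.0022), *Mmrn2*, an endothelial matrix protein, by 0.81 and 0.78 on its probes (adjusted p = 0.0029 and 0.00030), *Egfl7*, which endothelium secretes, by 0.77 (adjusted p = 0.0025), and *Esam*, an adhesion molecule of tight junctions, by 0.74 (adjusted p = 0.00075). *Pecam1*, the general marker CD31, read -0.72, -0.82 and -0.47 (mean -0.67, adjusted p = 0.0017).

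Of the transcription factors on the endothelial list, *Sox17* and *Sox18* were lower and *Fli1* did not pass (mean -0.25, adjusted p = 0.17), nor did the VEGF receptors *Kdr* and *Flt1*. *Sox17* read -0.54, -0.81 and -1.04 (mean -0.80, SE 0.15, adjusted p = 0.010) and *Sox18* fell by 0.68 (adjusted p = 0.0064). The adjusted p of *Sox17* was 0.094 without replicate 3, and that of *Sox18* was 0.073 without replicate 1. *Kdr*, the main receptor for VEGF, read -0.22, 0.07 and -0.12 (mean -0.09, SE 0.18, adjusted p = 0.81), and *Flt1* read 0.51 and -0.37 on the 2 arrays with a value. *Tie1*, an orphan receptor of the angiopoietin system, fell by 0.47 (adjusted p = 0.0065), and stood at 0.063 without replicate 3. *Robo4*, which steadies endothelial junctions, fell by 1.02 (adjusted p = 0.0091, and 0.076 without replicate 1). For 3 of these genes a second probe did not pass: it read -0.12 in the mean for *Robo4* (adjusted p = 0.62), -0.27 for *Eng* (adjusted p = 0.093) and -0.21 for *Pecam1* (adjusted p = 0.61).

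**Figure D1:**
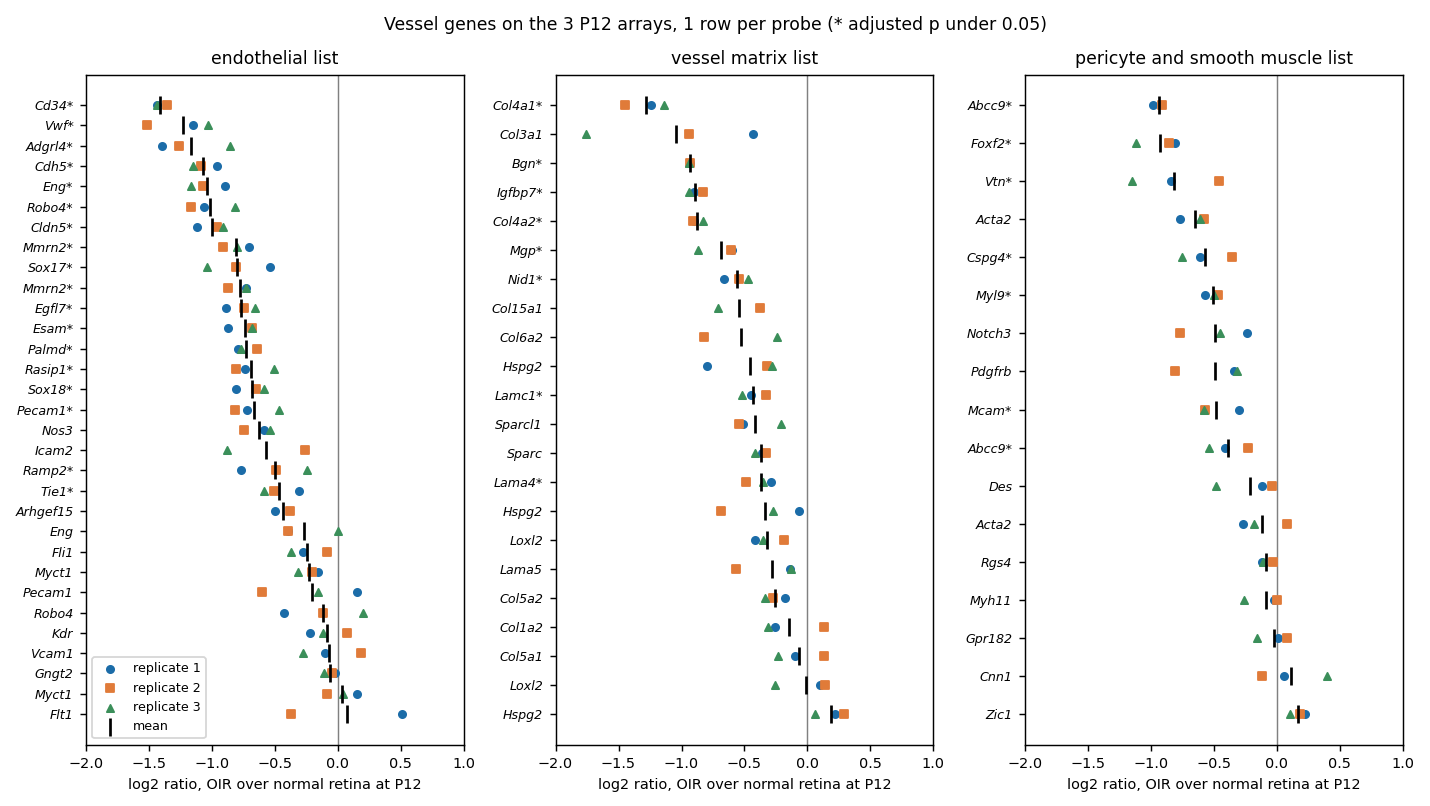
Log2 ratio of P12-O over P12-N (horizontal axis) for each probe of the endothelial, vessel matrix and pericyte lists, with 1 symbol per array, a bar at the mean and an asterisk at an adjusted p under 0.05. The symbols of *Cd34*, *Col4a1* and *Bgn* lie far below 0 on all 3 arrays, and those of *Kdr* and *Vcam1* spread around 0.

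The collagens and binding proteins of the vascular basement membrane were lower with the endothelial genes. Of 19 genes of the vessel matrix, 8 were lower and 0 higher, with a median of -0.43, and 16 of the 20 probes with 3 values were below 0 on each array. *Col4a1*, a chain of basement membrane collagen, read -1.24, -1.45 and -1.14, 0.413 of the normal level (mean -1.28, SE 0.11, adjusted p = 0.00012). Its partner chain *Col4a2* read -0.90, -0.91 and -0.83 (mean -0.88, SE 0.09, adjusted p = 0.00061). *Bgn*, the small proteoglycan biglycan, read -0.93, -0.93 and -0.94 (mean -0.93, SE 0.11, adjusted p = 0.00091). The 3 pools lay closer together for *Bgn* and *Col4a2* than for *Col4a1*. *Igfbp7*, which endothelium deposits around vessels, fell by 0.89 (adjusted p = 0.0047), *Mgp*, the matrix Gla protein, by 0.69 (adjusted p = 0.0085), *Nid1*, a linker of basement membrane networks, by 0.56 (adjusted p = 0.0039), and the laminin chains *Lamc1* and *Lama4* by 0.43 and 0.37 (adjusted p = 0.028 and 0.024). *Col3a1*, a fibrillar collagen, read -0.43, -0.94 and -1.76 and did not pass (mean -1.04, adjusted p = 0.092). The count of matrix genes lower was 4 without replicate 1 and 5 without replicate 3, where *Mgp* stood at 0.053 and 0.075, *Lamc1* at 0.14 and 0.16 and *Lama4* at 0.093 and 0.10. *Nid1* stood at 0.053 without replicate 1, and *Lama4* at 0.10 without replicate 2 too.

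Genes of pericytes and smooth muscle, the cells that wrap the vessels, gave 6 lower and 0 higher of 15 measured, with a median of -0.48. *Foxf2*, a transcription factor of brain pericytes, read -0.81, -0.86 and -1.12 (mean -0.93, SE 0.18, adjusted p = 0.012). *Vtn*, the glycoprotein vitronectin, read -0.84, -0.46 and -1.15 (mean -0.82, SE 0.15, adjusted p = 0.0098). *Cspg4*, the proteoglycan NG2 of pericytes, fell by 0.57 (adjusted p = 0.012) and *Mcam*, an adhesion molecule of mural and endothelial cells, by 0.48 (adjusted p = 0.0058), and *Myl9*, a myosin light chain of smooth muscle, by 0.51 (adjusted p = 0.021). *Abcc9*, a channel subunit of pericytes, had a mean of -0.94 on 2 arrays with one probe (adjusted p = 0.025) and of -0.39 on 3 arrays with the other (adjusted p = 0.011). *Pdgfrb*, the receptor that recruits pericytes, read -0.34, -0.81 and -0.32 (mean -0.49, adjusted p = 0.088), and *Acta2*, the actin of smooth muscle, -0.77, -0.58 and -0.61 (mean -0.65, SE 0.25, adjusted p = 0.13). Without replicate 1, *Foxf2* stood at 0.073, *Cspg4* at 0.089, *Vtn* at 0.079 and *Myl9* at 0.13, and without replicate 3 they stood at 0.095, 0.10, 0.095 and 0.10 and *Mcam* at 0.058. The probe of *Abcc9* with 3 values stood at 0.083 and 0.098 without replicates 1 and 3, and the other at 0.060 without replicate 3.

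Of 16 genes of sprouting and tip cells, 5 were lower and 0 higher (median -0.18). Besides *Prnd* and *Tie1* these were the endothelial Notch receptor *Notch4*, which fell by 0.69 (adjusted p = 0.0017), *Trp53i11*, which fell by 0.51 (adjusted p = 0.0030), and the actin-bundling gene *Fscn1*, which fell by 0.28 (adjusted p = 0.020, and 0.067 to 0.12 with 1 array left out). A second probe of *Notch4*, with values on replicates 2 and 3 only, read -0.33 and -0.64 and did not pass (mean -0.48, adjusted p = 0.059). Of 12 genes of the blood-retinal barrier, 4 were lower and 0 higher (median -0.18). *Cldn5*, the claudin of endothelial tight junctions, read -1.12, -0.96 and -0.91, 0.502 of the normal level (mean -1.0, SE 0.08, adjusted p = 5.6e-05). *Slc38a5*, a glutamine transporter of retinal endothelium, read -1.30, -1.09 and -1.10 (mean -1.16, SE 0.14, adjusted p = 0.0011). Both genes read nearly the same on the 3 pools. *Pglyrp1*, a peptidoglycan recognition protein, read -0.58, -0.83 and -1.47 (mean -0.96, adjusted p = 0.0061). *Slco1c1*, the thyroid hormone carrier of barrier endothelium, read -0.89, -0.86 and -0.36 (mean -0.70, adjusted p = 0.030). Its adjusted p was 0.16 without replicate 1 and 0.091 without replicate 2.

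Most of the vessel genes that were lower at P12 did not pass the test after 1 day in oxygen, though many pointed the same way. At an unadjusted p under 0.05 in limma, 15 of 24 endothelial genes were lower at P8 and 0 higher. Of the 17 endothelial genes lower at P12, 4 were lower at P8 (*Cdh5*, *Cd34*, *Mmrn2* and *Cldn5*), where 0.518% of all genes tested were lower, and the list median at P8 was -0.36. *Cd34* went from -0.68 at P8 (adjusted p = 0.036) to -1.41 at P12, and *Vwf* from -0.24 (adjusted p = 0.45) to -1.23. *Col4a1* went from -0.63 (adjusted p = 0.022) to -1.28, and *Prnd* from -0.79 (adjusted p = 0.055) to -1.47. *Slc38a5* stood at -1.16 at both ages. The difference between P12 and P8 was tested as a contrast and did not pass for any gene of the list: 0 of 24 endothelial genes differed in limma at an adjusted p under 0.05, with a median difference of -0.30 and 12 lower and 0 higher at an unadjusted p under 0.05, and for *Cd34* it was -0.73 (SE 0.19, adjusted p = 0.18). The P8 arrays correlated with each other less than the P12 arrays, and a difference of this size did not pass with 3 arrays at each age.

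After 24 h in room air some of the vessel genes were higher than at P12, and some were still below normal retina. In the contrast of P13 against P12, 9 of 24 endothelial genes were higher at P13, where 2.08% of all genes were, and 0 were lower. *Cd34* read 0.52, 0.30 and -0.12 at P13, all above the -1.44 to -1.36 at P12, and differed by 1.64 (SE 0.19, adjusted p = 0.00051). *Col4a1* stood at a mean of 0.22 at P13 and differed by 1.5 (adjusted p = 0.00042), *Prnd* at -0.11 and differed by 1.36 (adjusted p = 0.011), and *Eng* at -0.06 and differed by 0.98 (adjusted p = 0.024). None of these 4 genes passed the test against normal retina at P13, which does not show that they had returned to its level. Of the 17 endothelial genes lower at P12, 4 were lower at P13 as well, where 0.701% of all genes tested were lower, and 0 were higher. These 4 were *Cldn5*, which stood at -0.76 (adjusted p = 0.00027), *Sox17* at -0.75 (adjusted p = 0.025), *Cdh5* at -0.56 (adjusted p = 0.018) and *Vwf* at -0.56 (adjusted p = 0.024). *Vwf* was also among the 9 genes higher at P13 than at P12 (difference 0.67, adjusted p = 0.041). *Adgrl4* and *Esam* stood at -0.37 and -0.29 at P13 (adjusted p = 0.26 and 0.13). The transporters *Slc38a5* at -0.99 (adjusted p = 0.0028) and *Slco1c1* at -1.31 on 2 arrays (adjusted p = 0.016) were also lower at P13. Their differences from P12 were 0.17 (adjusted p = 0.73) and -0.60 (adjusted p = 0.19), which is not evidence of equal levels.

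**Figure D2:**
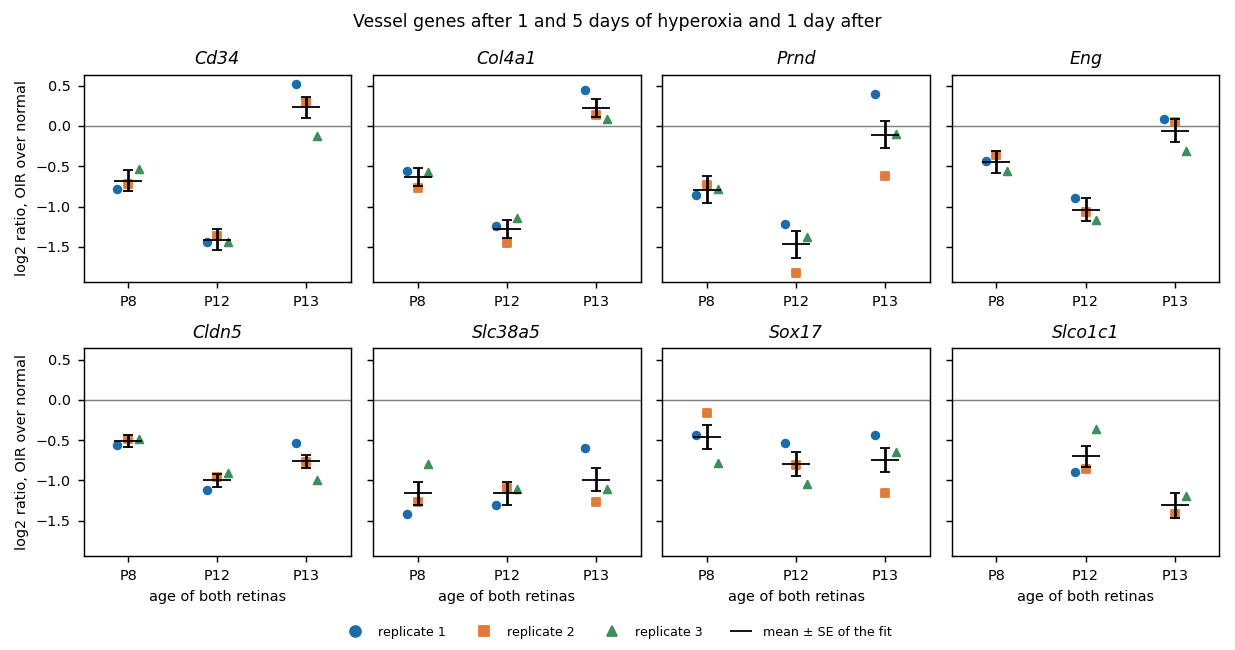
Log2 ratio of OIR over normal retina (vertical axis) at P8, P12 and P13 for 8 vessel genes, with 1 symbol per array and the mean ± SE of the limma fit in black. *Cd34*, *Col4a1*, *Prnd* and *Eng* are lowest at P12 and near 0 at P13, and *Cldn5*, *Slc38a5*, *Sox17* and *Slco1c1* are still below 0 at P13.

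The enzymes of glycolysis were lower after 5 days of oxygen. Of 12 genes measured, 7 were lower and 0 higher, with a median of -0.40 beside -0.52 at P8, and all 12 had a mean below 0. *Pfkl*, the liver form of phosphofructokinase, had the smallest adjusted p of the lists at P12. It read -1.06, -0.99 and -0.96, which is 0.50 of the normal level (mean -1.0, SE 0.06, adjusted p = 3.2e-06). *Hk2*, a hexokinase of photoreceptors, read -1.37, -0.54 and -0.90, with a wider spread (mean -0.93, SE 0.13, adjusted p = 0.0024). *Pkm*, the pyruvate kinase, read -0.53, -0.51 and -0.51 (mean -0.52, SE 0.07, adjusted p = 0.0025). Lower were also *Ldha*, which makes lactate, by 0.39 (adjusted p = 0.018), *Tpi1*, the triose phosphate isomerase, by 0.43 (adjusted p = 0.016), *Hk1* by 0.49 (adjusted p = 0.025) and *Pgk1*, the phosphoglycerate kinase, by 0.34 (adjusted p = 0.033). A second probe of *Tpi1* stood at 0.05 (adjusted p = 0.85) and one of *Hk1* at -0.31 (adjusted p = 0.068). *Gapdh* and *Pgam1* had means of -0.48 and did not pass (adjusted p = 0.052 and 0.074).

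*Pfkl*, *Hk2* and *Pkm* passed without each array in turn, and the smaller changes did not. The count of glycolytic genes lower was 3 without replicate 1, 5 without replicate 2 and 4 without replicate 3. Without replicate 1, *Tpi1*, *Ldha*, *Pgk1* and *Hk1* stood at adjusted p values of 0.14, 0.16, 0.20 and 0.11, and without replicate 3 *Ldha*, *Pgk1* and *Hk1* stood at 0.069, 0.097 and 0.16. Without replicate 2, *Tpi1* and *Pgk1* stood at 0.052 and 0.083. Of the 7 genes lower at P12, 5 were lower at P8 too, and all 7 were higher in the contrast of P13 against P12. *Pfkl* stood at -0.93 at P8 and 0.58 at P13, and the difference from P12 to P13 was 1.58 (SE 0.08, adjusted p = 6.6e-07). The difference between P12 and P8 was -0.07 in the median of the list and did not pass in limma for any of the 12 genes (4 higher and 3 lower at an unadjusted p under 0.05).

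Promoter sequences of 4 of these oxygen-sensitive genes are shown because HIF binds DNA at a short core, ACGTG or GCGTG, and the genes differ in how they read at P12. The stretches run from 250 bases before to 50 bases after the start of transcription in RefSeq on build GRCm38.p6, and the capitals mark the core on either strand (CACGT and CACGC are its reverse complements). *Pfkl* lies at chr10:78009758-78010057 on the minus strand, *Hk2* at chr6:82774405-82774704 on the minus strand, *Pgk1* at chrX:106186850-106187149 on the plus strand and *Pdk1* at chr2:71872974-71873273 on the plus strand.
Pfkl: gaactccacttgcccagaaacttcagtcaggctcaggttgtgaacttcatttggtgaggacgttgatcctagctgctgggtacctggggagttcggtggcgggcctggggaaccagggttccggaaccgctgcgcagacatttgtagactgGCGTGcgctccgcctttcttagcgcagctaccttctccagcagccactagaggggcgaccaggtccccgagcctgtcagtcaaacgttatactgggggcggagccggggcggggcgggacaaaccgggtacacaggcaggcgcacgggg
Hk2: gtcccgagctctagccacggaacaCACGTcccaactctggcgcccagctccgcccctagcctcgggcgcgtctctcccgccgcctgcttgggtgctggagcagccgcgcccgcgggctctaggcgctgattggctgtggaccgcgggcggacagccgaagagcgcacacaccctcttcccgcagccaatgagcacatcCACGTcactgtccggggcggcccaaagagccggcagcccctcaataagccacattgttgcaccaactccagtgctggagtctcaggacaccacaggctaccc
Pgk1: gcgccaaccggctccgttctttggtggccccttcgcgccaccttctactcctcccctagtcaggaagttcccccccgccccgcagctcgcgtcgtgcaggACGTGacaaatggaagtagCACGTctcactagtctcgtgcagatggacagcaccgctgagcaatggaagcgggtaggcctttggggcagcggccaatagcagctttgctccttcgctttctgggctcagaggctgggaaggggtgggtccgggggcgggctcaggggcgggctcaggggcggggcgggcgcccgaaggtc
Pdk1: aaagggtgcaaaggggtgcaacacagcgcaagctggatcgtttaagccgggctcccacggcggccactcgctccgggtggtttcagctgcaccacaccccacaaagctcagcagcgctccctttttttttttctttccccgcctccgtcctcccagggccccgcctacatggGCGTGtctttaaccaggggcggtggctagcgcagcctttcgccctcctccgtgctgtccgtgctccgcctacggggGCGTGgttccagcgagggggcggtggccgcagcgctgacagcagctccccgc
*Pfkl* had 1 match, which began at position -99 from the start site, and *Hk2* had 2, at -226 and -52. *Pgk1* had 2 matches, at -150 and -131, and *Pdk1* 2, at -78 and -2. A second start site listed for *Pdk1* had 0 matches. The core occurred in 43.8% of all 32851 promoters, in 12 of 18 promoters of the glycolytic genes measured (66.7%) and in 33 of 41 promoters of the hypoxia-induced genes measured (80.5%). All 12 glycolytic genes measured had a promoter in the table, but 11 of the 26 endothelial genes and 8 of the 17 lower ones had. The core was found in 5 of the 13 promoters of those 11 genes (38.5%) and in 2 of the 10 of those 8 (20.0%). Other vessel genes read otherwise. For the vessel matrix genes with a promoter, the core was in 8 of 14 promoters of those measured (57.1%) and in 4 of 5 of those lower (80.0%). A match is a run of letters and no binding was measured.

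Outside glycolysis, few targets of hypoxia were lower at P12. Of 39 hypoxia-induced genes measured, 7 were lower and 0 higher, with a median of -0.11. Of those 7, *Pfkl*, *Hk2*, *Tpi1*, *Ldha* and *Pgk1* are glycolytic, and the other 2 were *Vegfa* and *Angptl4*. *Vegfa*, the growth factor that drives retinal vessels, read -0.59, -0.70 and -0.26, 0.699 of the normal level (mean -0.52, SE 0.12, adjusted p = 0.024). It did not pass without replicate 1 (adjusted p = 0.14) or replicate 2 (adjusted p = 0.11). *Angptl4*, a secreted lipase inhibitor that hypoxia induces, had a mean of -0.55 with one probe (adjusted p = 0.0074, and 0.081 without replicate 1) and of -0.04 and 0.06 with the other probes. *Pdk1*, which keeps pyruvate out of mitochondria, read -0.30, -0.25 and -0.08 (mean -0.21, SE 0.08, adjusted p = 0.13). *Ankrd37*, a target of HIF, read -0.27, -0.14 and 0.20 (mean -0.07, SE 0.10, adjusted p = 0.73), and *Bnip3*, a mitophagy receptor that hypoxia induces, had a mean of -0.21 (adjusted p = 0.43).

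For several of these genes the decrease measured after 1 day was larger than that after 5 days. At P8 the list had 15 of 34 measured genes lower and a median of -0.45. Over all probes, the contrast of P12 against P8 found 4 higher (0.0295% of 13566 probes) and 1 lower (0.00737%), and 3 of the 4 were on the list of hypoxia-induced genes. *Vegfa* had read -2.21, -1.65 and -1.49 at P8, below all 3 P12 arrays, and the difference was 1.27 (SE 0.17, adjusted p = 0.019). The paper's real-time PCR gave a smaller decrease of *Vegfa* at P8 than its array ratio, and the paper gives no PCR at P12. The size of this difference therefore rests on the arrays alone. In the same contrast *Pdk1* differed by 0.97 (SE 0.11, adjusted p = 0.010) and *Ankrd37*, with 2 arrays at P8, by 1.30 (SE 0.16, adjusted p = 0.014). *Grhpr*, a reductase of glyoxylate, differed by 0.85 (adjusted p = 0.044). Without P8 replicate 1, 2 probes were higher and 0 lower in this contrast. The single gene lower was *Ubr3*, which went from -0.45 to -1.28 (difference -0.83, SE 0.13, adjusted p = 0.044), and 0 were lower without P12 replicate 3. *Pfkl*, *Hk2*, *Pkm* and *Ldha* did not pass in the contrast of P12 against P8 (adjusted p = 0.69 to 0.98), which is not evidence of equal levels. Other glycolytic genes stood nearer to 0 at P12 than at P8 and did not pass in this contrast either. *Pgk1* stood at -0.95 at P8 and -0.34 at P12 (difference 0.61, adjusted p = 0.13), *Tpi1* at -1.01 and -0.43 (0.59, adjusted p = 0.14), *Pgam1* at -1.05 and -0.48 (0.57, adjusted p = 0.27) and 1 probe of *Gpi1* at -0.77 and -0.13 (0.64, adjusted p = 0.090).

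Of the growth factors and receptors of the VEGF and PDGF families, 2 of 13 genes measured were lower and 1 higher. *Vegfc*, the growth factor of lymphatic and venous vessels, read -1.0, -0.53 and -0.28 (mean -0.60, SE 0.14, adjusted p = 0.022), and stood at 0.20 without replicate 1 and 0.051 without replicate 2. *Pdgfra*, a receptor of retinal astrocytes, read 0.13, 0.19 and 0.70 (mean 0.34, adjusted p = 0.046), highest on replicate 3, and stood at 0.34 without it. *Pgf*, *Vegfb* and *Pdgfa* had means of 0.01, -0.18 and -0.05. In the HIF pathway itself, 2 of 11 genes were higher and 0 lower: *Cul2* by 0.40 (adjusted p = 0.022) and one of 3 probes of *Rbx1* by 0.30 (adjusted p = 0.021), both subunits of the ligase that marks HIF for decay. Both stood at 0.13 without replicate 1, and at 0.15 and 0.10 without replicate 3. *Hif1a* read 0.31, 0.06 and 0.26 (mean 0.21, adjusted p = 0.35), and the oxygen sensor *Egln1* had means of 0.01, 0.10 and 0.11 on its probes.

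On return to room air the genes of hypoxia turned. Of 40 hypoxia-induced genes measured at P13, 20 were higher than in normal retina and 1 lower, where 1.11% of all genes tested were higher. Over all probes, the contrast of P13 against P12 passed for 171 higher (1.21% of 14126) and 47 lower (0.333%). *Vegfa* read 1.02, 1.32 and 1.31 at P13, and its difference from P12 was 1.74 (SE 0.17, adjusted p = 0.00026). Of the 7 hypoxia-induced genes lower at P12, 6 were higher at P13 than in normal retina, and the exception was *Angptl4*, which was still lower (mean -0.57, adjusted p = 0.0087). *Hsd17b2*, a steroid dehydrogenase, differed most, by 2.22 (SE 0.28, adjusted p = 0.0012), from -1.04, -0.55 and -0.34 to 1.73, 2.12 and 0.89. *Acta2* differed by 2.15 (SE 0.36, adjusted p = 0.0077) and the cytoskeletal genes *Tubb6* and *Tagln2* by 1.91 and 1.79 (adjusted p = 0.00051 and 0.0015). The contrasts with P8 and with P13 both use the P12 arrays and are not independent of the P12 values. Without P12 replicates 1, 2 and 3, the contrast with P13 passed for 83, 173 and 101 probes higher and for 14, 80 and 18 lower, and without P13 replicate 3 for 219 and 82.

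**Figure D3:**
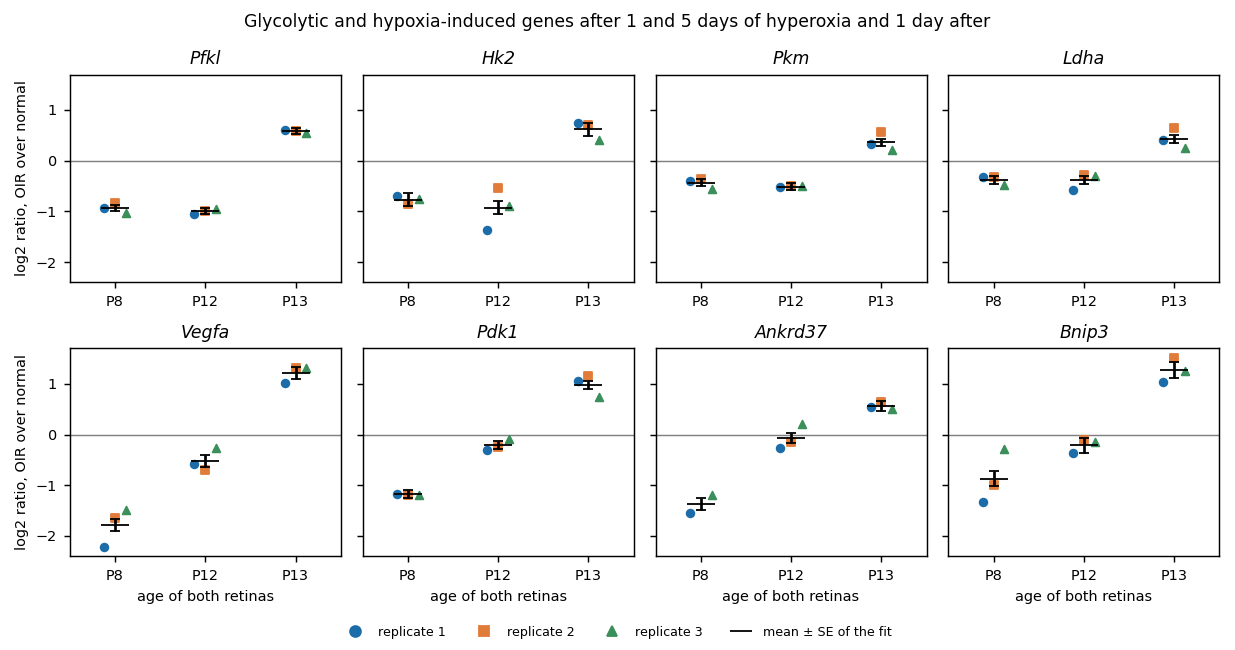
Log2 ratio of OIR over normal retina (vertical axis) at P8, P12 and P13 for 4 glycolytic genes (upper row) and 4 other hypoxia-induced genes (lower row), with 1 symbol per array and the mean ± SE of the limma fit in black. The means of *Pfkl*, *Hk2*, *Pkm* and *Ldha* differ between P8 and P12 by -0.17 to -0.01, and those of *Vegfa*, *Pdk1* and *Ankrd37* by 0.97 to 1.30. The glycolytic genes *Pgk1*, *Tpi1*, *Pgam1* and *Gpi1*, which are not drawn, differ by up to 0.64.

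Some genes of rods, cones and synapses were lower at P12. Of 23 rod genes measured, 5 were lower and 0 higher, with a median of -0.09, and of -0.23, -0.03 and -0.11 on replicates 1, 2 and 3. *Pde6a*, a subunit of the rod phosphodiesterase, read -1.28, -0.26 and -1.39 (mean -0.98, SE 0.21, adjusted p = 0.019). *Gnat1*, rod transducin, read -0.77, -0.41 and -1.02 (mean -0.73, SE 0.14, adjusted p = 0.012). *Rcvrn*, recoverin, read -1.19 and -0.41 on the 2 arrays with a value (mean -0.80, adjusted p = 0.033). In these 3 genes replicate 2 was the closest to 0. *Pde6g*, another phosphodiesterase subunit, fell by 0.38 (adjusted p = 0.028), and *Abca4*, a transporter of outer segments, by 0.37 and 0.31 on its probes (adjusted p = 0.035 and 0.018). Other rod genes stood near 0, among them *Nrl*, the rod transcription factor, at -0.02 and *Sag*, rod arrestin, at 0.06. The count of rod genes lower was 0 without replicate 1, 5 without replicate 2 and 0 without replicate 3. By SAM, 0 rod genes passed. Of 12 cone genes, 2 were lower, cone arrestin *Arr3* (mean -0.58, adjusted p = 0.023) and the transducin subunit *Gnb3* (mean -0.26, adjusted p = 0.040). *Arr3* stood at 0.20 without replicate 1 and 0.099 without replicate 3, and *Gnb3* at 0.22 and 0.13.

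Of 19 synaptic genes, 5 were lower and 0 higher (median -0.19, and -0.10, -0.15 and -0.17 on replicates 1, 2 and 3). They included *Syn1*, a protein of synaptic vesicles, with -0.44, -0.50 and -0.51 (mean -0.48, SE 0.09, adjusted p = 0.011), and *Cacna1f*, the calcium channel of photoreceptor terminals, with -0.53, -0.38 and -0.52 (mean -0.48, adjusted p = 0.011). The others were the glutamate transporter *Slc17a7* at -0.46 (adjusted p = 0.037), the complexin *Cplx4* at -0.42 (adjusted p = 0.035) and the syntaxin *Stx1a* at -0.28 (adjusted p = 0.025). *Syn1* and *Cacna1f* were even over the arrays, while *Slc17a7* read -0.94 on replicate 3 and -0.21 and -0.23 on the others. None of these 5 was lower at P8 or at P13. Without replicate 1 or without replicate 3 the adjusted p of all 5 was 0.075 to 0.28.

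Of the 126 lower probes with 3 values, 65 were smallest in size on replicate 2. That array had the narrowest spread over all its values (standard deviation 0.26, beside 0.31 and 0.31 on replicates 1 and 3). The probes lower at P12 were set beside the change between P9 and P30 in normal retina. Of 22 rod genes measured in normal retina, 18 were lower at P9 than at P30. Of the 125 probes lower at P12 with a value in that comparison, 55 (44.0%) were lower at P9 than at P30 and 25 (20.0%) higher, beside 16.2% and 17.7% of all 13686 probes tested. The 51 of the former with 3 values had medians of -0.78, -0.45 and -0.96 on replicates 1, 2 and 3, and 38 of them were smallest on replicate 2. The 25 probes higher at P9, among them *Cd34*, *Col4a1*, *Cdh5* and *Prnd*, had medians of -0.90, -0.89 and -0.87, and 7 were smallest on replicate 2. Over all tested probes with 3 values there was no such gap: those lower at P9 had medians of -0.09, -0.06 and -0.07, and 933 of 2150 were smallest on replicate 2, beside 1062 of 2362 of those higher at P9. Over probes, replicates 1, 2 and 3 correlated with P9 over P30 at r = 0.19, 0.13 and 0.22. The probes were called on these same arrays, so these figures describe how the 3 pools differ. Litters differed between the pools, and the part of litter or of the exact age in these genes was not tested.

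**Figure D4:**
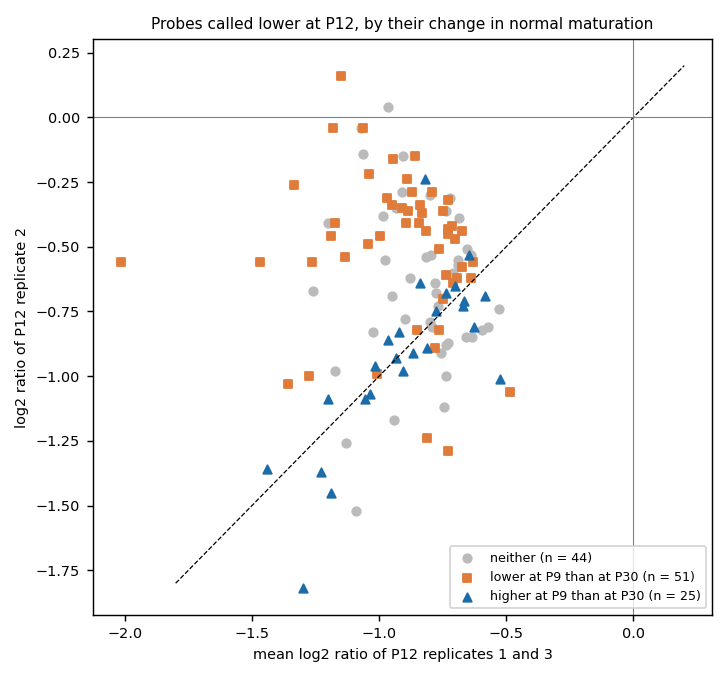
Log2 ratio on replicate 2 (vertical axis) against the mean of replicates 1 and 3 (horizontal axis) for 120 probes lower at P12, coloured by whether the gene was lower (51), higher (25) or neither (44) at P9 against P30 in normal retina. Probes lower at P9 lie mostly above the diagonal, which means closer to 0 on replicate 2, with medians of -0.78, -0.45 and -0.96 on replicates 1, 2 and 3.

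None of the probes higher at P12 belonged to a gene on the lists of vessels or photoreceptors. The lists do not hold every vessel gene, and *Jam2*, given below, was on none of them. Replicate 2 was the smallest for 39 of the 70 higher probes with 3 values. Among all tested probes with 3 values, it was the smallest for 933 of 2150 lower at P9 than at P30 and for 1062 of 2362 higher at P9. *Jam2*, a junction adhesion molecule, read 1.45, 0.57 and 1.28 (mean 1.10, SE 0.14, adjusted p = 0.0014), and its second probe 1.27, 0.28 and 0.94 (mean 0.83, adjusted p = 0.033). *Zfpm1*, a cofactor of GATA factors, read 1.25, 0.59 and 1.11 (mean 0.98, SE 0.12, adjusted p = 0.00093). *Celf1*, a splicing regulator, read 0.80, 0.88 and 0.87 (mean 0.85, SE 0.12, adjusted p = 0.0025). *Celf1* was even over the pools, and *Jam2* and *Zfpm1* were lowest on replicate 2. *Brcc3*, a deubiquitinase of DNA repair, rose by 0.85 (adjusted p = 0.0032), the deubiquitinase *Usp3* by 0.83 (adjusted p = 0.0014), the adhesion molecule *Cadm1* by 0.83 (adjusted p = 0.0096), *Elovl2*, which elongates fatty acids, by 0.78 (adjusted p = 0.011) and the kinase *Rps6ka3* by 0.74 (adjusted p = 0.0028). *Cadm1* and *Elovl2* failed the test without replicate 1 (adjusted p = 0.090 and 0.086) or replicate 3 (0.078 and 0.096), and so did the second probe of *Jam2* (0.18 and 0.16). *Mdm4*, a regulator of p53, read 0.86, 0.96 and 1.05 (mean 0.96, adjusted p = 0.030, and 0.078 to 0.14 with 1 array left out). *Dtd2*, a tRNA deacylase, read 1.75, 0.71 and 0.67 (mean 1.04, adjusted p = 0.014, and 0.12 without replicate 1). The RIKEN gene *1700093K21Rik* had a mean of 0.87 (adjusted p = 0.036, and 0.13 and 0.23 without replicates 1 and 3) and *Med14*, a Mediator subunit, of 0.80 (adjusted p = 0.021, and 0.091 and 0.059). *H1f8*, an oocyte histone, read 1.88, 0.13 and 1.17 and had an adjusted p of 0.033 in all, 0.20 without replicate 1 and 0.15 without replicate 3.

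Other groups held a few genes that were higher by small amounts, where 3.37% of all genes tested were higher. Of 17 clock genes, 2 were higher and 0 lower, with a median of 0.20: *Per2*, a repressor of the clock, read 1.45, 0.27 and 0.67 (mean 0.80, SE 0.16, adjusted p = 0.013), and *Tef*, which it times, had a mean of 0.45 (adjusted p = 0.022). Neither passed without replicate 1 (adjusted p = 0.10 and 0.14) or replicate 3 (0.062 and 0.15), and the hour of collection was not given in the sources used here. All 6 ribosomal protein genes measured had means at or above 0, and 3 were higher. *Rpl23* rose by 0.36 (adjusted p = 0.014), *Rps27* by 0.34 (adjusted p = 0.0099) and *Rps3* by 0.31 and 0.27 on its probes (adjusted p = 0.036 and 0.023). None of the 3 passed without replicate 1 (adjusted p = 0.096 to 0.11), and *Rps27* alone passed without replicate 3. The retinal transcription factors *Six6* and *Otx2* were higher by 0.56 and 0.30 (adjusted p = 0.0047 and 0.032), 2 of 21 measured. They stood at 0.060 and 0.14 without replicate 1, and *Otx2* at 0.067 and 0.15 without replicates 2 and 3.

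The other cells of the retina gave few calls, where 4.87% of all genes tested were lower and 3.37% higher. Calls of 1 or 2 genes in lists this short are given singly and are not a result about a cell type. Of 17 Müller glia genes, 1 was lower, *Clu*, the chaperone clusterin (mean -0.48, adjusted p = 0.018, and 0.090 and 0.12 without replicates 1 and 3). Of 15 genes of reactive glia, 2 were lower: *Anxa2*, an annexin, read -0.66, -0.69 and -0.51 (mean -0.62, SE 0.10, adjusted p = 0.0039), and *Nes*, nestin, had a mean of -0.52 (adjusted p = 0.0094, and 0.074 without replicate 3). Both turned by P13, where *Anxa2* differed from P12 by 1.76 (SE 0.14, adjusted p = 4.1e-05) and *Nes* by 1.18 (adjusted p = 0.00059). *Gfap*, the marker of gliosis, stood at 0.04 (adjusted p = 0.95). Of 15 microglial genes, 2 were higher, the lysosomal *Cd68* by 0.39 (adjusted p = 0.040) and the receptor *Trem2* by 0.41 (adjusted p = 0.028), with a list median of 0.15. *Cd68* did not pass without any 1 of the 3 arrays (adjusted p = 0.058 to 0.19), nor *Trem2* (0.064 to 0.15). No gene of bipolar and ganglion cells (14 measured), oligodendrocytes (7), muscle (10) or blood (3) passed in limma or SAM, where 4, 2, 0 and 1 had an unadjusted p under 0.05 in limma. Of 14 lens crystallin genes, 1 was higher, *Cryba1*, which had values on 2 arrays, 1.05 and 1.20 (adjusted p = 0.010), and the list median was 0.12.

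**Figure D5:**
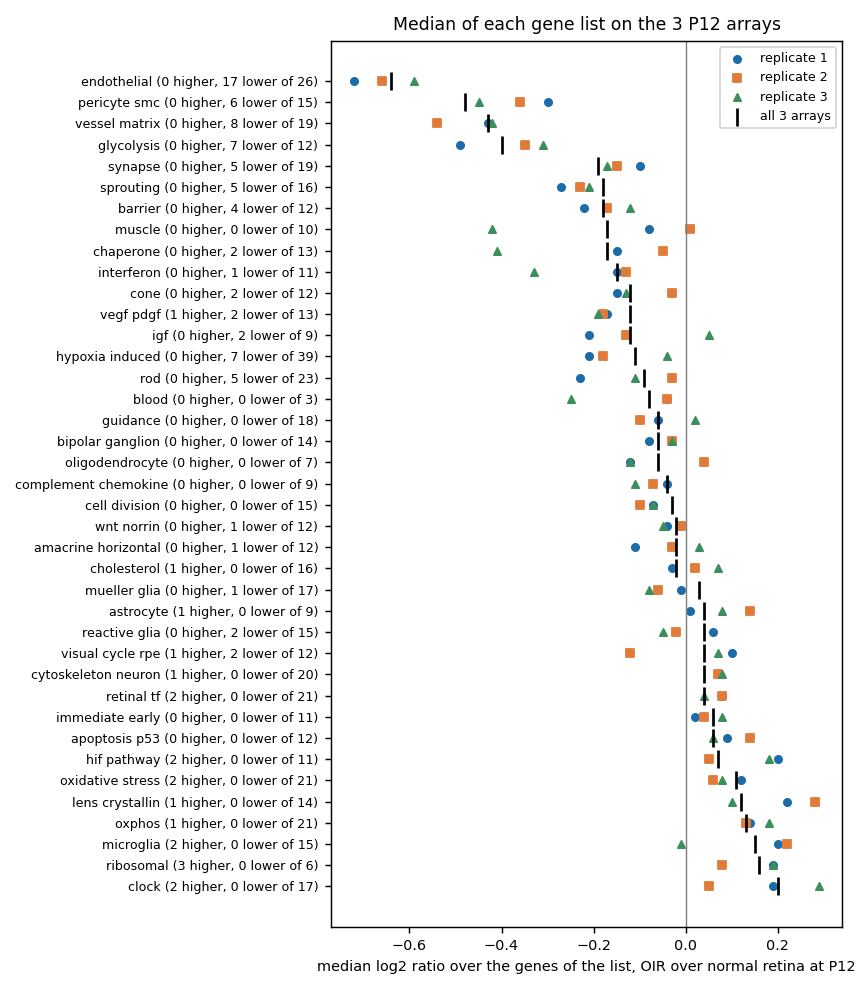
Median log2 ratio of P12-O over P12-N for each gene list (horizontal axis), with 1 symbol per array, next to the number of genes measured, higher and lower. The endothelial list (26 measured, 17 lower) lies furthest below 0, with the pericyte, vessel matrix and glycolysis lists next, and the medians of the other lists over the mean of the arrays lie at -0.19 to 0.20, with single arrays outside that range.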

How the data were processed

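RNA of pooled mouse retinas was hybridised on 2-colour whole-genome arrays, and the samples were grouped by their titles. The authors deposited normalized log2 ratios, 1 per probe and array. The labels name 2 dye orientations per sample, and whether a value holds 1 or both, the normalization, the background correction and the rule for blank values are not given in the sources used here. Each could shift weak signals and the spread between arrays. The arrays' numerator is not settled by the labels. It was set from the direction that the paper states for named genes, whose signs matched for 4 of 4 found at P12, 6 of 6 at P8, 12 of 12 at P13 and 5 of 5 for P9 and P30.

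The 15 arrays were fitted together (limma 3.58.1, R 4.3.3), with a separate mean for each of the 5 comparisons and a common spread for each probe. Means were tested against 0, and the Benjamini-Hochberg procedure was applied to all probes with at least 2 values. The threshold for probes was an adjusted p under 0.05 together with a 1.5-fold change. For the genes of a list the fold was disregarded: a gene counted in a direction when at least 1 of its probes had an adjusted p under 0.05 there and none in the other, and list medians are of the means over a gene's probes. Contrasts came from the same fit. The script was tested on simulated data.

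Symbols were updated with the RefSeq table: 17558 probes had a current symbol, 3410 a synonym, 46 an ambiguous synonym, 6 no match and 8902 no symbol. Genes were named from the 15 highest and 15 lowest probes with 1 sign on 3 arrays, members of lists of 30 or fewer genes, up to 10 of longer lists, genes in the paper's text and the 8 most different probes of each contrast. The members and the 39 lists were chosen with earlier results of these data known. Same-numbered arrays did not pair: the deviations of P12 arrays from their mean correlated with those of the same number at -0.19 to 0.15 over 12 pairs, 1 of them above 0.1. The litters are the only stated difference between pools. The spread behind each p-value was pooled over all comparisons, so it is not that between the P12 pools alone. A separate fit of the P12 arrays gave 10 probes higher and 37 lower, beside 75 and 135. The paper counts fewer samples than 15 arrays with a pair of pools each would hold. Some pools were therefore probably hybridised more than once, while the fit treated the arrays as independent. The number of arrays limits the precision. Alternatives were a separate fit, SAM at a false discovery rate of 1%, an adjusted p under 0.01, no fold cutoff, median centring, scaling to one median absolute deviation, array weights, other sets of probes, a replicate block and leaving out single arrays. Tables were handled with pandas 2.3.3 and numpy 2.4.6 in Python 3.11.15, and figures drawn with matplotlib 3.10.9. Pathway annotation, real-time PCR and histology were not analysed here.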

Additional observations from a re-analysis of the deposited data

Results flagged for a closer look

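Results were picked out here where the difference between OIR and normal retina changed with age, by a limma contrast of the means of 2 ages in the same fit. Each contrast uses the P12 arrays.

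Between 1 and 5 days of oxygen, 4 probes were higher and 1 lower. The differences on the log2 scale were 1.30 for *Ankrd37*, 1.27 for *Vegfa*, 0.97 for *Pdk1*, 0.85 for *Grhpr* and -0.83 for *Ubr3*.

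Between P12 and P13, 171 probes were higher at P13 and 47 lower. The largest increases were those of *Hsd17b2* (2.22), *Acta2* (2.15), the mucin gene *Muc2* (2.11), *Tubb6* (1.91), *Tagln2* (1.79), *Anxa2* (1.76), *Vegfa* (1.74) and *Cd34* (1.64). The replicates of *Muc2* stood at -0.36, -1.05 and -0.07 at P12 and at 1.98, 1.56 and 1.31 at P13. In glycolysis, the difference was 1.58 for *Pfkl*, 1.55 for *Hk2*, 1.45 for *Pgam1*, 1.29 for *Gapdh*, 1.14, 1.02 and 0.67 for the probes of *Gpi1*, the phosphoglucose isomerase, 1.09 for *Tpi1*, 1.00 for *Pgk1*, 0.88 for *Pkm*, 0.82 for *Ldha* and 0.82 for *Hk1*. Among genes lowest at P12, it was 1.5 for *Col4a1*, 1.36 for *Prnd*, 1.12 for *Drd4*, 0.98 for *Eng*, 0.80 for *Adgrl4*, 0.69 for *Ubr3* and 0.67 for *Vwf*.

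Lower at P13 than at P12 were *Esrp1*, a splicing regulator of epithelia, by -1.20, the nucleotide receptor gene *P2ry14* by -1.18, *Jam2* by -1.12, *Serpinb12* by -1.11, *Per2* by -1.03, *Ramp1* by -0.98, the antisense gene *Six3os1* by -0.94, *Zfpm1* by -0.91, *Brcc3* by -0.78, *Celf1* by -0.74 and *Usp3* by -0.68. Of these, *Jam2*, *Per2*, *Six3os1*, *Zfpm1*, *Brcc3*, *Celf1* and *Usp3* were higher than normal at P12 and stood at -0.31 to 0.15 at P13, while *Esrp1*, *P2ry14* and *Ramp1* stood at 0.21 to 0.25 at P12 and -0.97 to -0.73 at P13.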

How the results depend on the processing

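The number of arrays limits these counts. At P12, 75 probes were higher and 135 lower. A separate fit of the P12 arrays gave 10 and 37, SAM 3 and 62, an adjusted p under 0.01 20 and 67, and no fold cutoff 528 and 641. Leaving out 1 array gave 13 to 125 higher and 58 to 171 lower. Of the probes lower, 58 were shared with SAM and 37 with the separate fit, and of those higher 2 and 9. Arrays of the same number were not taken as pairs, and the replicate block gave 70 and 125 at P12, 3 and 1 for P12 against P8, and 151 and 40 for P13 against P12.

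For P12 against P8 (4 and 1), a separate fit gave 0 and 0, an adjusted p under 0.01 0 and 0, scaling to one median absolute deviation 8 higher, median centring 2 lower, array weights 111 and 66, probes with 15 values 10 and 3, and leaving out 1 P12 array 4 to 6 and 0 to 1. Without P8 replicate 1, an alternative chosen after seeing the data, they were 2 and 0. For P13 against P12 (171 and 47), a separate fit gave 52 and 3, an adjusted p under 0.01 66 and 6, no fold cutoff 109 lower, scaling 75 lower, array weights 341 and 193, and leaving out 1 P12 array 83 to 173 and 14 to 80. Without P13 replicate 3, also chosen after seeing the data, they were 219 and 82.

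Without 1 array, the genes lower numbered 14 to 16 of 23 to 25 endothelial genes measured (17 of 26 with all arrays), 4 to 7 of 17 to 19 vessel matrix (8 of 19), 3 to 5 of 12 glycolytic (7 of 12) and 0 to 5 of 21 to 23 rod genes (5 of 23). Of 111 named probes past the test, 21 still passed in every alternative run on single probes, 35 without each P12 array, and 0 reversed. The 21 include *Prnd*, *Cd34*, *Col4a1*, *Ubr3*, *Vwf*, *Adgrl4*, *Slc38a5*, *Cdh5*, *Eng*, *Pfkl* and *Cldn5* among those lower and *Brcc3* and *Celf1* among those higher.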

Other observations

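Some groups outside the report gave isolated values. Among 13 chaperone genes, 2 were lower at P12, *Xbp1*, the transcription factor of the unfolded protein response, at -0.75, -0.35 and -1.12 (mean -0.74, limma adjusted p = 0.0065) and *Pdia6*, a disulfide isomerase of the endoplasmic reticulum, at -0.51, -0.53 and -0.61 (mean -0.55, adjusted p = 0.021). The adjusted p of *Xbp1* was 0.058 without replicate 1 and 0.064 without replicate 3, and that of *Pdia6* was 0.055 to 0.12 with 1 array left out. Of 9 genes of the insulin-like growth factor system, *Igfbp7* and *Igfbp4* were lower, at means of -0.89 and -0.29 (adjusted p = 0.0047 and 0.035). *Igfbp4* stood at 0.12 to 0.14 with 1 array left out.

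Of 21 genes of the oxidative stress response, 2 were higher and 0 lower, with a median of 0.11. These were *Txnip*, which inhibits thioredoxin (0.59, 0.50 and 0.39, mean 0.50, adjusted p = 0.037), and the glutathione transferase *Gstm1* (mean 0.28, adjusted p = 0.028). Neither passed without replicate 1 (adjusted p = 0.20 and 0.15). The heme oxygenase *Hmox1* stood at -0.01. *Prdx2*, a peroxiredoxin, read 1.90, 0.93 and 0.26 and did not pass at this threshold (mean 1.03, adjusted p = 0.050). Genes of cell division (15 measured), apoptosis (12) and immediate early response (11) gave 0 calls in limma and in SAM, with medians of -0.03, 0.06 and 0.06. At an unadjusted p under 0.05 in limma, 2, 1 and 3 of them differed.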
